A study of Rattus norvegicus with 6 samples.

Results

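The cell cycle genes described here are 37 genes chosen by symbol, 12 that act in DNA replication and 25 that act in mitosis, of which 36 had a row in the count matrix of 28293 genes. Cks2 had no row under that symbol and was not analysed here. Pclaf had rows under 2 Ensembl identifiers, ENSRNOG00000067723 with 1721 unique molecular identifiers (UMIs) and ENSRNOG00000016561 with 98, and these were added together. The series measured single cells of the hippocampus of male rats with Chromium 3′ v3 kits, which give every captured transcript a cell barcode and a UMI. The labels give 3 control rats and 3 rats whose whole brain received 20 Gy, with the tissue taken 2 months later, and they give no strain and no age. Cells were dissociated by digestion and cleared of red cells and dead cells, and the labels name no sorting.

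The matrix pools 6 libraries, marked by a number from 1 to 6 at the end of each barcode, and nothing in the sources used here ties a number to a labelled rat. No comparison of irradiated with control rats was therefore made, and no p-value is given. The pooled matrix is 1 sample, every interval covers counting error only, and the libraries are given with their numbers and no condition. The libraries held 46853113 to 62094407 UMIs and 5462 to 9678 kept cells, with median depths of 4138 to 6479 UMIs per kept cell. Any 2 libraries shared 17 to 49 barcodes. The 45393 kept cells fell into 31 clusters, which were built without the members and further listed cell cycle genes, and named only from marker genes. Cell cycle genes outside those lists, such as Knstrn, were not left out.

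In the cell cycle, a cell first copies its DNA in S phase and then divides it in mitosis. Replication genes are switched on by E2F factors as a cell leaves G1, and the later mitotic genes carry CHR and CCAAT elements in their promoters that are bound by the DREAM and MuvB complexes and by NF-Y. In the adult hippocampus, progenitors in the dentate gyrus, oligodendrocyte precursors and microglia are known to divide, while neurons and mature oligodendrocytes do not. Among the replication members, Mcm2, Mcm3, Mcm4, Mcm5, Mcm6 and Mcm7 form the ring of the replicative helicase, and Pcna is the sliding clamp of the DNA polymerases, to which Pclaf binds. Rrm1 and Rrm2 are the subunits of ribonucleotide reductase, and Tyms and Tk1 make thymidine nucleotides.

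The promoter windows of the members held these elements in different shares. RefSeq's table for the rat build GRCr8 held a window of 250 bases before and 50 bases after the start for 21 mitotic and 10 replication members, Cks2 among them. The CHR was searched as TTTGAA or TTCGAA, the CCAAT box as CCAAT, and the E2F core as TTTGGCG or as TTTCCCG or as TTTCGCG or as TTTGCCG, all on both strands, with overlaps between motifs allowed. A CHR stood in 71.4% of the mitotic and 30.0% of the replication members, against 19.7% of all 33469 promoters of that length. A CCAAT box stood in 85.7% of the mitotic and 70.0% of the replication members, against 37.5% of all. An E2F core stood in 14.3% of the mitotic and 70.0% of the replication members, against 6.8% of all. Both a CHR and a CCAAT box stood in 66.7% of the mitotic members and 7.95% of all promoters, and 2 or more E2F cores stood in 5 of the 10 replication members, 0 of the 21 mitotic members and 0.436% of all. The windows of 4 mitotic members (Aurka, Birc5, Kif11 and Kif23) and of Pclaf started more than 1000 bases inside the annotated gene, 2121 bases for Aurka, and may not be the promoters in use. Over the other 17 mitotic members a CHR stood in 76.5%, a CCAAT box in 88.2% and an E2F core in 11.8%, and over the other 9 replication members in 33.3%, 66.7% and 66.7%. A match describes letters in the window and does not show a bound site.

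The sequences below are the 150 bases before the start of 4 mitotic members that hold both a CHR and a CCAAT box, and of 2 Mcm members with E2F cores, as the table gives the start. Capitals mark a CHR, a CCAAT box or an E2F core on either strand, and motifs that touch or overlap form 1 run of capitals. They lie at chr5:137255800-137255949 on the minus strand (Cdc20), chr8:79981659-79981808 on the minus strand (Ccnb2), chr20:19265143-19265292 on the plus strand (Cdk1), chr1:143659331-143659480 on the plus strand (Prc1), chr13:42404353-42404502 on the minus strand (Mcm6) and chr12:22163179-22163328 on the minus strand (Mcm7) of GRCr8.
Cdc20: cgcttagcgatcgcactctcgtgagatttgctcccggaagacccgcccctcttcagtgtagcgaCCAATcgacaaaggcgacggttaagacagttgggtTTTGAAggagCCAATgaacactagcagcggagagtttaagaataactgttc
Ccnb2: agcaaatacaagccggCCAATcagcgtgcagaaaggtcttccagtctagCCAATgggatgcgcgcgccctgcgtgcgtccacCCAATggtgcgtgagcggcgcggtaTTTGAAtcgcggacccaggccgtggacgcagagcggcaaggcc
Cdk1: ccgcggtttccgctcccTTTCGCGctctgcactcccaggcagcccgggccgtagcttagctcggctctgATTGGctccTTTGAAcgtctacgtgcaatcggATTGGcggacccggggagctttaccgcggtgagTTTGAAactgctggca
Prc1: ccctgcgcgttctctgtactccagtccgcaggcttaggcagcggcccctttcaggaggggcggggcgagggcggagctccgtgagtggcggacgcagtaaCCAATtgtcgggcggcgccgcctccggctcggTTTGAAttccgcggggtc
Mcm6: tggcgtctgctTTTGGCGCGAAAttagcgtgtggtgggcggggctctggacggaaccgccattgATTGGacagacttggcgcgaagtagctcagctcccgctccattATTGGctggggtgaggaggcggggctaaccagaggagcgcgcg
Mcm7: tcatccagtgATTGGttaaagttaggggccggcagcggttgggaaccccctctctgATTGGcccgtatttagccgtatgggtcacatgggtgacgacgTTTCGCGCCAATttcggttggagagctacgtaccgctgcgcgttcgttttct

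Most members were found in very few cells, and those cells held many of them at once. Of the 45393 cells, 30650 had no UMI of any of the 24 mitotic members and 12081 had UMIs of 1 member, which was Aurka in 52.2% of them. The number of cells fell to 54 at 4 members and 17 at 5, lay at 8 to 16 cells for each number from 8 to 14, and rose again to 34 at 22 members and 32 at all 24. Cells with at least 5 mitotic members, here called mitotic-set cells, numbered 375, or 0.826% (exact binomial interval 0.745 to 0.914%). Of these, 245 held 15 or more members. The cut at 5 lies at the near edge of this trough, with 302 cells at 3 or 4 members and 47 cells at 5 to 7. Mitotic-set cells were deeper than the others, with a median of 9461 UMIs against 4944. When each cell was thinned to 2000 UMIs, which left out shallower cells, 286 of 40581 passed the same cut, or 0.705%.

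**Figure D1:**
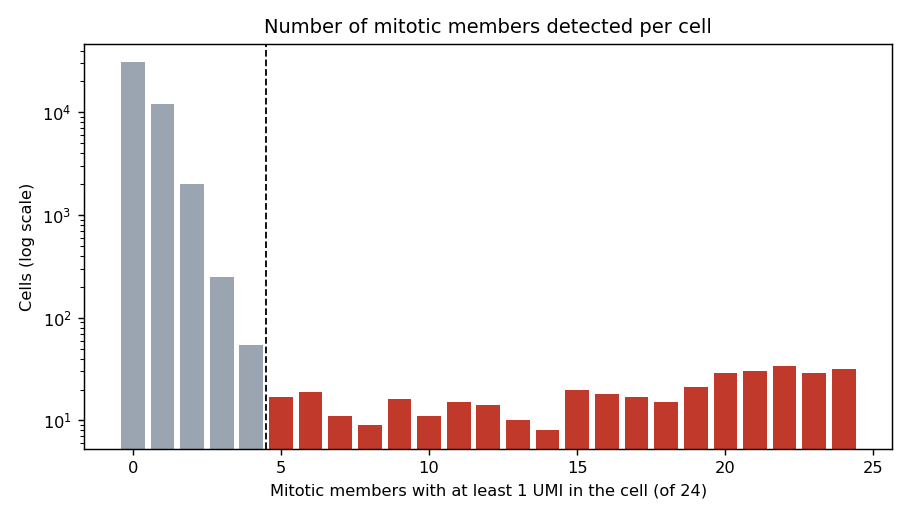
Number of cells (y axis, log scale) by the number of mitotic members with at least 1 UMI (x axis, of 24), with the cut at 5 dashed and the 375 mitotic-set cells in red. The counts fall to 9 cells at 8 members and rise again to 34 cells at 22 members.

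The replication members gave a weaker separation. At least 5 of the 12 had a UMI in 421 cells, or 0.928% (0.841 to 1.02%), and the counts fell without a trough, from 452 cells at 4 members and 141 at 5 to 13 cells at 12. Thinning to 2000 UMIs left 52 of 40581 cells, or 0.128%, so few cells pass this cut at that depth. The cells that passed it unthinned had a median of 10305 UMIs, and the part of depth in their share was not tested. Both sets were present in 220 cells, the mitotic set alone in 155 and the replication set alone in 201.

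The members differed in how far their transcripts were held by mitotic-set cells, which made up 0.826% of cells and held 1.54% of all UMIs. For each mitotic member the set was formed from the other 23, so that the gene did not choose its own cells. Top2a, which untangles replicated DNA, had 95.4% of its UMIs there, Nusap1, a spindle protein, 93.6%, Ube2c, the ubiquitin-conjugating enzyme of the anaphase-promoting complex, 92.5%, and Cenpf, a kinetochore protein, 92.3%. Mki67, the proliferation marker that coats mitotic chromosomes, had the highest level of the set, 1218 UMIs per 1000000 (CPM) in mitotic-set cells and 3.44 CPM elsewhere, and was found in 94.8% and 1.55% of cells. The median over the 24 mitotic members was 80.4% of UMIs. Rrm2 and Pclaf were the replication members most restricted to these cells, at 90.9% and 84.1% of UMIs, against a median of 12.4% over the 12.

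Aurka and Pcna stood at the other end. Aurka, a kinase of the centrosome and spindle poles, had 4.66% of its 10188 UMIs in mitotic-set cells and was found in 17.2% of the other cells, where the median mitotic member was found in 0.619%. Pcna had 4.85% of its 25943 UMIs in mitotic-set cells and was found in 35.9% of the others. The 6 Mcm genes had 9.86 to 30.7% of their UMIs in mitotic-set cells, with Mcm7 lowest and Mcm5 highest. Rrm1 was found in 11.0% of other cells, while Rrm2, the subunit that limits the enzyme in S phase, was found in 0.0911%. Birc5, which encodes survivin, and Cdca8, its partner in the chromosomal passenger complex, had 49.4% and 44.4% of their UMIs in mitotic-set cells.

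**Figure D2:**
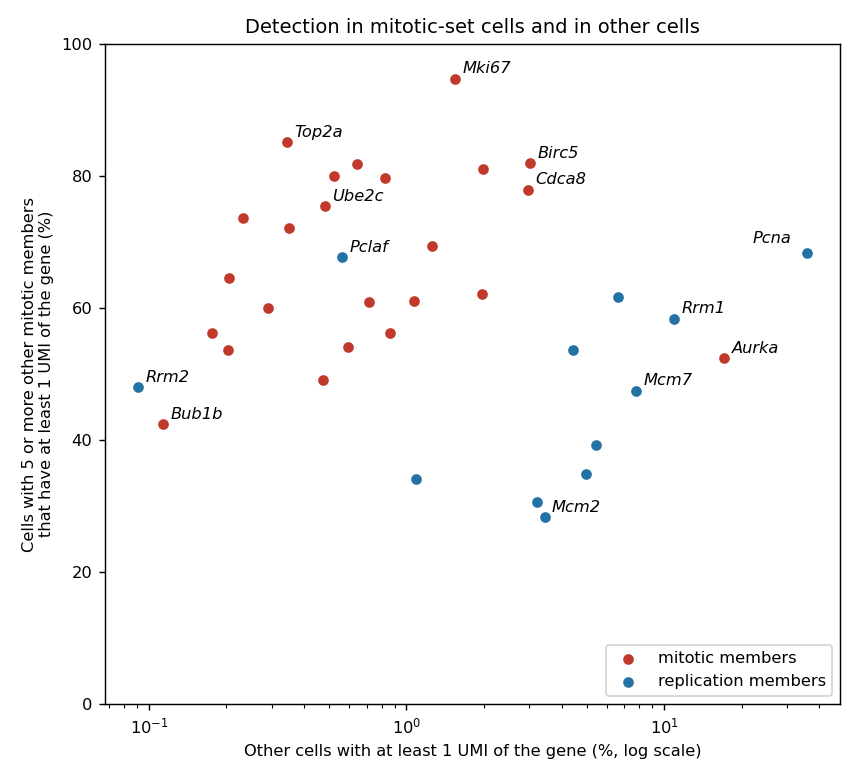
For each member, the percentage of mitotic-set cells (y axis; for a mitotic member the set is formed from the others) and of other cells (x axis, log scale) with at least 1 UMI. Pcna at 35.9% and Aurka at 17.2% of other cells lie far to the right, and Top2a and Mki67 lie at the top left.

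Most of the mitotic-set cells lay in a myeloid cluster and in the T or NK cell-like class. Cluster 21 held 146 of the 375, in 148 cells. It was led by Cenpf, Mki67, Top2a, Ube2c and other mitotic genes, so its set cells are not a finding about it. Its mitotic-set cells had 3724 CPM of C1qa and 1064 CPM of Cx3cr1, genes of microglia and macrophages, with 300 CPM of P2ry12, 112 CPM of Clec7a and 2913 CPM of Lyz2, and 1 CPM of the T cell gene Cd3e. T or NK cell-like cells gave 88, cluster 6 gave 35, the Clec7a macrophage-like cells 34, the neuroblast-like cells 31, the microglia-like cells 17 and the oligodendrocyte precursor-like cells 11. Clec7a is a fungal sugar receptor carried by activated macrophages and microglia. Cluster 6, led by Mmp2 and Lyve1, scored between microglia and border macrophages and was left unnamed.

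By share, the neuroblast-like cells stood highest among the named classes, with 31 of 123 cells or 25.2% (17.8 to 33.8%). The T or NK cell-like cells followed with 88 of 909 or 9.68% (7.84 to 11.8%), and the oligodendrocyte precursor-like cells with 11 of 201 or 5.47% (2.76 to 9.58%). The intervals of the last 2 overlap. The T or NK cell-like share pools 2 unlike clusters, cluster 17 with 19 of 550 mitotic-set cells and cluster 18 with 69 of 359, and describes neither alone. Cluster 6 had 1.01% (0.706 to 1.41%), the Clec7a macrophage-like cells 0.486% (0.337 to 0.678%), the microglia-like cells 0.0921% (0.0537 to 0.147%) and the astrocyte-like cells 0.0251% (0.00518 to 0.0734%), 3 of 11938 cells. The mature oligodendrocyte-like cells had 0 of 862, which allows a share of up to 0.348% by 3 counts of the total (exact upper bound 0.427%). Without library 2 the microglia-like share was 0.0584%. Thinned to 2000 UMIs, the shares were 20.0% of neuroblast-like, 9.30% of T or NK cell-like, 4.69% of oligodendrocyte precursor-like, 0.365% of cluster 6, 0.198% of Clec7a macrophage-like and 0.0400% of microglia-like cells.

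The shares of the myeloid classes depended on where the cells of cluster 21 were placed. In a further clustering, added after the data were seen, every gene that followed the number of mitotic members was also left out, and cluster 21 dissolved. Of its 148 cells, 62 joined the counterpart of cluster 6, 48 joined the Clec7a macrophage-like clusters, 22 joined clusters made mostly of microglia-like cells and 14 joined the counterpart of cluster 13. The mitotic-set cells then made up 94 of 3514 cells or 2.68% of the counterpart of cluster 6, 83 of 7033 or 1.18% of the Clec7a macrophage-like clusters and 40 of 18469 or 0.217% of the clusters made mostly of microglia-like cells. The T or NK cell-like share was 9.61% and the neuroblast-like share 22.8% in that clustering.

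Of the single members, Top2a and Mki67 were also found most often in the neuroblast-like and T or NK cell-like cells among these named classes. Top2a was found in 26.0% of neuroblast-like cells at a median depth of 9138 UMIs, in 9.79% of T or NK cell-like cells at 4173 UMIs, and in 0.232% (0.0281 to 0.836%) of mature oligodendrocyte-like cells at 5378 UMIs, a class that should lack it. Mki67 was found in 30.1%, 12.2% and 0.696% of the same classes. The 0.200% of microglia-like cells with Top2a and the 0.764% with Mki67 lay within the intervals of that background, and both were below the 0.394% and 0.854% of astrocyte-like cells, an order that differs from that of the mitotic-set shares. These microglia-like values leave out the cells of cluster 21, which Mki67 and Top2a helped to lead. Of its 148 cells, 22 joined mostly microglia-like clusters in the further clustering, so the values do not cover all microglia. In Clec7a macrophage-like cells Mki67 was found in 4.68% of cells, above the background, and Top2a in 0.885%.

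**Figure D3:**
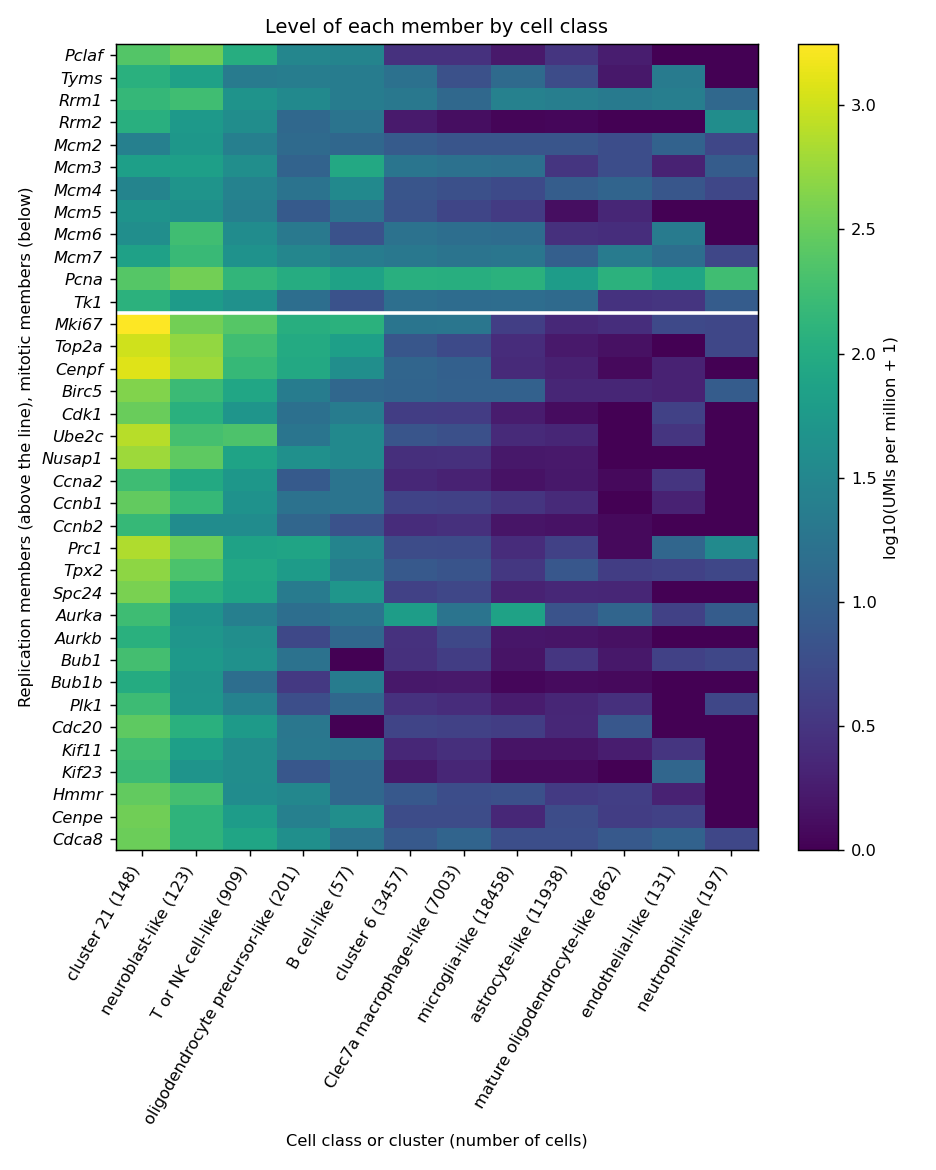
Level of each of the 36 members (rows) in 12 classes and clusters (columns, with their numbers of cells), as log10 of CPM plus 1 in the colour scale. By their sum, mitotic members are brightest in cluster 21, the neuroblast-like and the T or NK cell-like cells. Their sums are 759 CPM in oligodendrocyte precursor-like and 622 CPM in B cell-like cells, the latter with 1 mitotic-set cell of 57. Most are darker in the remaining columns, except Aurka in microglia-like cells and cluster 6, while Pcna is bright in every column.

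The summed level of the 24 mitotic members was 4070 CPM (3962 to 4180) in the neuroblast-like class, 1821 CPM (1782 to 1860) in the T or NK cell-like class and 759 CPM (711 to 810) in the oligodendrocyte precursor-like class. It was 170 CPM in cluster 6, 122 CPM for Clec7a macrophage-like, 116 CPM for microglia-like, 44.0 CPM for astrocyte-like and 42.1 CPM for mature oligodendrocyte-like cells. The 12 replication members summed to 1608 CPM in neuroblast-like, 582 CPM in T or NK cell-like and 308 CPM in oligodendrocyte precursor-like cells, and to 228 CPM in microglia-like and 190 CPM in mature oligodendrocyte-like cells. The replication sum therefore spanned a much smaller range than the mitotic sum, and Pcna alone gave 121 of the 190 CPM in mature oligodendrocyte-like cells.

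Aurka accounted for much of the mitotic sum in microglia-like cells. Its level was 73.0 CPM (71.3 to 74.7) of the 116 CPM there, 63.1 CPM in cluster 6, 16.6 CPM for Clec7a macrophage-like, 10.4 CPM for mature oligodendrocyte-like and 5.68 CPM for astrocyte-like cells. A UMI was found in 29.3%, 32.0%, 8.23%, 5.45% and 3.63% of the cells of those sets. Aurkb, its relative in the chromosomal passenger complex, had 0.577 CPM in microglia-like cells. By library, Aurka in microglia-like cells was 68.5, 77.7, 71.6, 92.7 and 85.0 CPM in libraries 1 to 5, and library 6 had 15 such cells. In every library with at least 50 cells of the classes, Aurka was higher in microglia-like than in astrocyte-like cells, whose values were 4.26 to 7.09 CPM. In GRCr8 the annotated genes Aurka and Fam210b share 89 bases on opposite strands, and the counting's treatment of strand is not given in the sources used here, so their reads cannot be told apart with certainty. Fam210b had 77.0 CPM in microglia-like and 60.7 CPM in astrocyte-like cells.

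Pcna had a flatter profile: 117 CPM in microglia-like, 106 CPM in Clec7a macrophage-like, 61.9 CPM in astrocyte-like and 121 CPM in mature oligodendrocyte-like cells, with 135 CPM for T or NK cell-like and 358 CPM for neuroblast-like cells. It was found in 30.5 to 47.3% of cells of the first 4 of these classes. In microglia-like cells of libraries 1 to 5 it was 128, 126, 99.4, 86.4 and 101 CPM. Mcm3 was 14.3 CPM in microglia-like and 2.17 CPM in astrocyte-like cells, and Mcm6 was 13.05 and 1.80 CPM.

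Levels of some members differed between the mitotic-set cells of different classes. Summed over the set cells, Ube2c was 954 CPM (895 to 1016) in those of the T or NK cell-like class and 468 CPM (413 to 529) in neuroblast-like cells, while Cenpf was 639 CPM (591 to 690) and 1407 CPM (1309 to 1509). Prc1, which bundles microtubules in the spindle midzone, was 306 CPM in T or NK cell-like, 775 CPM in neuroblast-like and 718 CPM in cluster 21 cells. Nusap1 was 331, 666 and 590 CPM in the same order. Among replication members, Pcna was 241 CPM in T or NK cell-like and 732 CPM in neuroblast-like set cells, Mcm6 was 85.6 and 341 CPM, and Pclaf was 452 and 840 CPM. Of the 12 replication members, 7 had a higher counting interval, with no overlap, in neuroblast-like than in T or NK cell-like set cells. None went the other way. Of the 24 mitotic members, 8 were higher in neuroblast-like and 3 in T or NK cell-like set cells. The same share over all genes was not computed, so these counts cannot be read as particular to the members. The neuroblast-like and T or NK cell-like set cells number 31 and 88, with median depths of 17485 and 10563 UMIs. Libraries 1 and 2 gave 15 and 12 of the 31 neuroblast-like set cells, but 8 and 2 of the 88 others. The part of library and depth in these differences was not tested. Single libraries did not all give the same values: in T or NK cell-like set cells Ube2c was 1338, 955 and 480 CPM in libraries 3, 5 and 6, which had 40, 19 and 12 such cells, and Cenpf was 434, 1013 and 445 CPM.

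The 375 mitotic-set cells were next split by the replication set, which used the replication members themselves, so their lower values in the second group are the rule and not a finding. The mitotic members did not move together. In the 155 cells without the replication set, Ccnb2 was 236 CPM against 98.1 CPM in the 220 cells with it, Cdc20, the activator of the anaphase-promoting complex, 378 against 177 CPM, Cenpf 1472 against 707 CPM, and Ccnb1 371 against 187 CPM. Ccnb1 and Ccnb2 are the cyclins of Cdk1 at entry into mitosis. The log2 ratios of these genes, with 10 CPM added, were 1.19, 1.06, 1.05 and 0.95. Spc24, a kinetochore protein, was 253 against 335 CPM (log2 ratio -0.39), Aurkb 97.2 against 118 CPM (-0.25), Nusap1 396 against 432 CPM (-0.12) and Ccna2, the cyclin of S phase and G2, 159 against 173 CPM (-0.12). Cdk1 and Bub1b had log2 ratios of 0.08 and 0.04. The cells without the replication set were shallower, with a median of 6790 UMIs against 11203, and the part of depth in these values was not tested. The groups also differed in class: cluster 21 gave 70 of the 155 and 76 of the 220, the T or NK cell-like class 25 and 63, and the neuroblast-like class 5 and 26. Within cluster 21, Cenpf was 2005 CPM (1878 to 2137) without and 827 CPM (767 to 890) with the replication set, and Ccnb2 198 and 119 CPM. Within the T or NK cell-like class, Cenpf was 1357 CPM (1221 to 1503) and 384 CPM (342 to 431), and Ccnb2 294 and 115 CPM. In the neuroblast-like class Cenpf went the other way, at 598 CPM (394 to 871) in its 5 cells without the set and 1479 CPM (1375 to 1589) in the 26 with it. The intervals of the other genes overlapped there: Ccnb2 was 66.5 and 90.9 CPM, Ccnb1 199.5 and 369.7 CPM, and Cdc20 155 and 285 CPM. Spc24 was 390 and 402 CPM in cluster 21, with intervals that overlap, and 175 and 384 CPM in the T or NK cell-like class. In the 201 cells with the replication set alone, Top2a was 1.88 CPM, Cenpf 3.29 CPM, Mki67 27.7 CPM and Nusap1 had 0 UMIs, while Mcm6 was 120 CPM, Mcm5 63.0 CPM and Pcna 189 CPM. Of these cells, 68 were in cluster 6 and 63 were microglia-like.

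**Figure D4:**
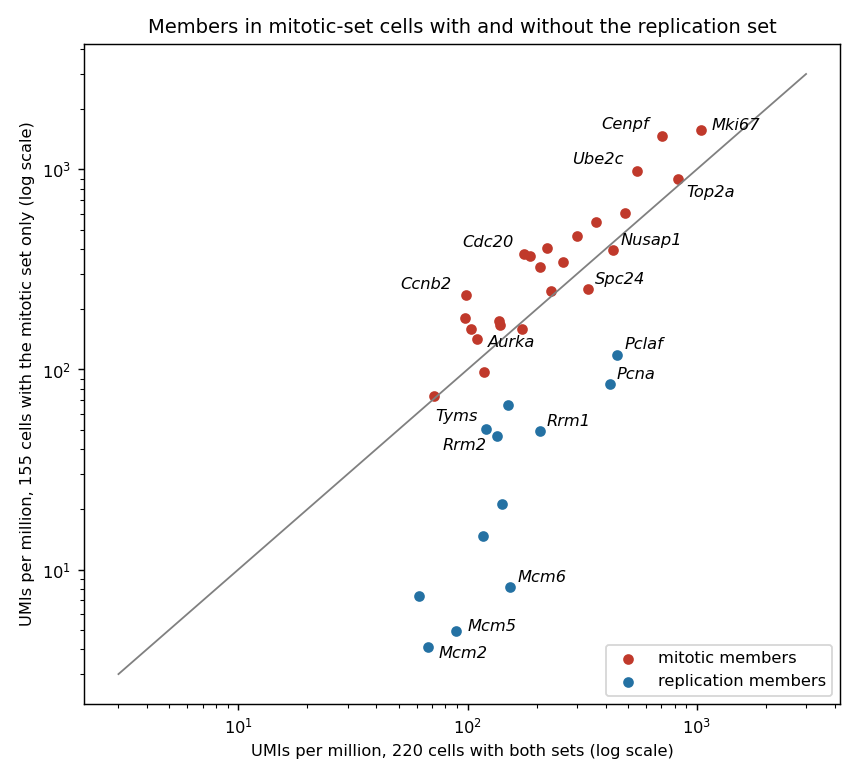
Level of each member in the 155 mitotic-set cells without the replication set (y axis) against the 220 with it (x axis), both as CPM on log scales, with the line of equal levels. Replication members lie below the line by the choice of cells, and among mitotic members Ccnb2, Cdc20 and Cenpf lie farthest above it.

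Mitotic-set cells were compared with the other cells of their class over all genes with at least 20 UMIs, with a gene called higher when its CPM, with 10 added to both sides, was at least 2-fold higher. In T or NK cell-like cells, 4.48% of 9726 genes were called, and 24 of the 24 mitotic members were, by the rule, and 11 of the 12 replication members, with Mcm3 at a log2 ratio of 0.76. Cluster 18, a cluster of this class nearly without Cd3e, gave 69 of its 88 set cells and 290 of its 821 other cells. The ratios of this class, here and below, therefore mix cluster with division, and the part of each was not tested. In neuroblast-like cells 5.98% of genes were called and 11 of 12 replication members, in Clec7a macrophage-like cells 2.89% and 10 of 11 measured, and in cluster 6 2.8% and 11 of 11. The replication members were read apart from the mitotic members that chose the cells. Their median log2 ratio was 1.77 in T or NK cell-like and 2.47 in neuroblast-like cells, against medians of 0.00 and -0.05 over all genes tested. Other replication genes moved likewise, 27 of 32 measured in T or NK cell-like and 31 of 32 in neuroblast-like cells, led by Asf1b, a histone chaperone, at 119 against 2.00 CPM in the T or NK cell-like class, and by Uhrf1, which guides copying of DNA methylation, at 87.1 against 2.56 CPM in neuroblast-like cells. Some replication genes reached 20 UMIs only with the set cells. In the T or NK cell-like class Pclaf had 465 UMIs in set cells and 3 in others, and Asf1b 122 and 7. The counts of replication genes called are therefore in part fixed by this filter.

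Other mitotic genes were called in 50 of 50 in T or NK cell-like and 51 of 51 in neuroblast-like cells, with Cdkn3, a phosphatase of Cdk1 and Cdk2, at 425 against 2.00 CPM and 263 against 2.56 CPM. Genes such as Cdca3, with 258 UMIs in T or NK cell-like set cells and 1 in the others, passed the filter only through the set cells. Those cells were themselves chosen by mitotic members, so these counts are largely fixed in advance and are not a finding. The chromatin and tubulin genes were called in 13 of 14 and 9 of 13. Stmn1, which destabilizes microtubules, was 2587 against 98.3 CPM in T or NK cell-like cells. Of the regulators of G1, 3 of 17 measured were called in T or NK cell-like and 7 of 15 in neuroblast-like cells, with 1 called lower in the latter, where 5.44% of all genes were called lower. Ccne1, the cyclin of the G1 to S step, was 37.9 against 1.71 CPM in T or NK cell-like and 59.9 against 5.13 CPM in neuroblast-like cells. The CDK inhibitors and quiescence genes were split, with 2 of 8 called higher and 1 lower in the T or NK cell-like class, where 2.12% of all genes were called lower, and 1 of 8 higher and 2 lower in neuroblast-like cells. Cdkn2c, an inhibitor of Cdk4 and Cdk6, was 135 against 17.4 CPM in the T or NK cell-like class. Cdkn1a, the p21 inhibitor, was 48.6 against 39.1 CPM in the same class, which did not reach the call. Outside the lists, Knstrn, a protein of kinetochores and the spindle, was 186 against 2.57 CPM in T or NK cell-like and 276 against 1.28 CPM in neuroblast-like cells. In Clec7a macrophage-like cells Stmn1 was 953 against 27.9 CPM. In cluster 6 Pttg1, the securin that delays the separation of sister chromatids until anaphase, was 207 against 2.42 CPM.

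The libraries differed in which classes held their mitotic-set cells. Over all kept cells the shares were 0.645, 0.518, 0.486, 0.996, 1.28 and 1.17% in libraries 1 to 6, with 36, 44, 47, 81, 103 and 64 cells. The T or NK cell-like cells of those libraries numbered 63, 67, 374, 116, 191 and 98, of which 8, 2, 40, 7, 19 and 12 were mitotic-set cells. Their shares were 12.7, 2.99, 10.7, 6.03, 9.95 and 12.2%. The lowest, 2 of 67 in library 2, has an interval of 0.364 to 10.4%, which reaches into the others. Neuroblast-like cells numbered 53, 53, 3, 8, 2 and 4, of which 15, 12, 2, 2, 0 and 0 were mitotic-set cells. Only libraries 1 and 2 held more than 10 of them, with shares of 28.3% (16.8 to 42.4%) and 22.6%. Cluster 21 had 3, 15, 0, 43, 52 and 35 cells. Clec7a macrophage-like cells numbered 3, 0, 1, 1710, 2918 and 2371, and their mitotic-set cells 0, 0, 0, 4, 20 and 10, the zeros of libraries 1 to 3 resting on at most 3 cells. Microglia-like cells numbered 4407, 6471, 7138, 179, 248 and 15, with 4, 10, 3, 0, 0 and 0 mitotic-set cells. The small cell numbers of a class in a library, and the part of dissociation in them, were not tested.

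**Figure D5:**
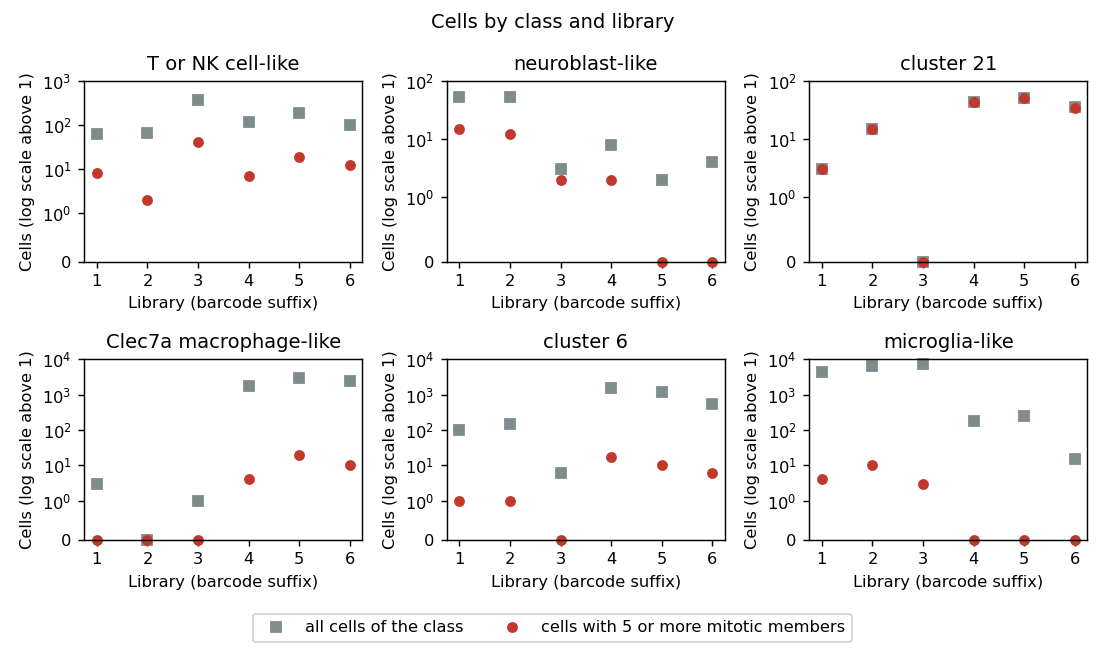
Number of cells (grey squares) and of mitotic-set cells (red dots) in each of 6 libraries (x axis, barcode suffix) for 6 classes or clusters, on an axis that is logarithmic above 1. The set cells of T or NK cell-like cells occur in every library, those of neuroblast-like cells mostly in libraries 1 and 2, and those of cluster 21 mostly in libraries 4, 5 and 6.

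Single members differed between libraries. Over all kept cells Mki67 was 16.1, 15.3, 7.89, 26.1, 35.0 and 28.0 CPM in libraries 1 to 6, and Aurka was 59.1, 58.2, 57.6, 24.04, 22.0 and 17.5 CPM. Ube2c was 8.04, 5.54, 15.03, 12.1, 14.5 and 12.4 CPM, and Cenpf 20.6, 11.2, 5.54, 18.5, 20.3 and 17.8 CPM. Library 3, which held 374 T or NK cell-like cells and none of cluster 21, had the highest Ube2c and the lowest Cenpf. Aurka was high in libraries 1 to 3, where microglia-like cells were most numerous. Pcna was 127, 114, 100.0, 92.3, 88.9 and 78.9 CPM.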

How the data were processed

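The authors deposited 1 matrix of raw UMI counts for 6 pooled libraries. Cell Ranger 7.0.0 made it, per the file headers, and per the submitters' processing notes the build is mm10, a mouse build, while the gene identifiers are rat Ensembl ones. The treatment of introns and strand is not given in the sources used here.

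Barcodes with at least 500 UMIs, 200 genes and at most 20% mitochondrial UMIs were kept (48704), and the 3311 highest doublet scores, at 0.8% per 1000 barcodes, were removed, which took out 51 cells with 5 or more mitotic members. Clusters came from the Leiden method (leidenalg 0.10.2, resolution 1.0) on 30 components of 2000 variable genes, with the listed cell cycle genes left out. A cluster took a name when its markers had a mean log2 ratio over the median cluster of 1 or more, led the next class by 1, and 3 of them passed. Counts were summed per class and given as CPM with exact Poisson intervals, and shares with exact binomial intervals of 95%. Genes named from other lists were among the 4 highest ratios of a list, or outside the lists among the 10 highest. Scripts were tested on simulated data. The members and lists were chosen with earlier results of these data known. Computations used Python 3.11.15 and SciPy 1.17.1.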

Additional observations from a re-analysis of the deposited data

How the results depend on the processing

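The T or NK cell-like and neuroblast-like shares of mitotic-set cells stayed within their counting intervals under every alternative that gave a value, with ranges of 8.97 to 10.2% and 22.9 to 27.1% when each library was left out. With a mitochondrial limit of 10% no neuroblast-like cluster was named. The overall mitotic share was 0.989% with that limit, 0.698% with none, 1.49% and 0.723% with cuts of 3 and 8 members, 0.705% after thinning, and 0.728 to 0.918% without each library. The replication share was 1.18% and 0.777% with those mitochondrial limits, 1.04% with doublets kept, 5.89% and 0.322% with those cuts, 0.128% after thinning, and 0.849 to 1.04% without each library. The microglia-like share was 0.0348% with the limit of 10%, 0.0292% when cell cycle genes entered the clustering, 0.477% with the cut of 3, 0.0400% after thinning, 0.228% when genes following the mitotic count were left out (over the clusters that took the name alone), and 0.0584 to 0.124% without each library. The Clec7a macrophage-like share was 0.322%, 0.0857%, 1.56%, 0.198% and 1.18% under those same settings, 0.300% at 1000 UMIs, 0.314% with the cut of 8, and 0.343 to 0.567% without each library. The mitotic sum of T or NK cell-like cells was 1973 CPM and 1734 CPM with the mitochondrial limits, 1507 CPM with doublets kept, 1916 CPM at 1000 UMIs, and 1680 to 1936 CPM without each library. In neuroblast-like cells it was 3567 CPM with doublets kept, 3823 CPM when genes following the mitotic count were left out, and 3298 to 4520 CPM without each library. With 1 CPM added, 706 genes in place of 436 were called in the T or NK cell-like class, and 426 to 456 without each library. For changes not fixed by the setting itself, the cause was not tested. No paired analysis was possible because the libraries cannot be tied to the labelled samples and their replicate numbers. Doublets and free RNA were removed incompletely or not at all, and small classes limit every share by library.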

Other observations

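Cdc45, a replication gene outside the members that helps to start the helicase, was one of the leading genes of the endothelial-like cluster, which was led by Hbb-b1 and also by Cxcl12, Itm2a and Slco1a4. Its level was 4658 CPM (4521 to 4798) there, against 37.6 CPM in neuroblast-like cells, 18.1 CPM in cluster 21 and 10.4 CPM in T or NK cell-like cells. The endothelial-like cluster had 0 mitotic-set cells of 131, which allows a share of up to 2.29% by 3 counts of the total (exact upper bound 2.78%), and its 24 mitotic members summed to 61.9 CPM. In GRCr8, Cldn5, a tight junction gene of endothelial cells, lies 2192 bases from Cdc45 on 1 side and on the opposite strand, Ufd1 lies 279 bases away on the other side, also on the opposite strand, and the matrix had no row by the symbol Cldn5. Whether reads of Cldn5 were counted as Cdc45 was not tested.

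The T or NK cell-like class was made of 2 clusters. Cluster 17, led by Ccl5, Ctsw and the T cell gene Cd3g, had 19 mitotic-set cells of 550, and cluster 18, led by Ccl5 and by Gzma and Gzmk, granzyme genes of cytotoxic cells, had 69 of 359. Over the whole class, the mitotic-set cells had 3043 against 1130 CPM of Gzma and 194 against 457 CPM of Cd3e, and these differences move with the share of each cluster. Within cluster 18, Gzma was 4065 CPM (3923 to 4210) in mitotic-set and 3428 CPM (3321 to 3537) in other cells, Gzmk 3270 and 3181 CPM with overlapping intervals, and Nkg7, another cytotoxic gene, 2873 and 3152 CPM. Within cluster 17, Gzmk was 1215 against 332 CPM, Nkg7 1551 against 662 CPM, and Cd3e 734 against 672 CPM with overlapping intervals. In cluster 18, Cd3e was near absent, at 6.54 CPM in mitotic-set and 12.3 CPM in other cells, from 5 and 14 UMIs.

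Among the neuroblast-like cells, those of the mitotic set had 875 against 527 CPM of Sox2, a progenitor factor, and 634 against 1353 CPM of Neurod1 and 200 against 492 CPM of Dcx, genes of later neuroblasts. The oligodendrocyte precursor-like set cells, 11 in number, had 347 against 1833 CPM of Bcas1, a gene of differentiating oligodendrocytes. Sox2 was also lower in these 11 cells, at 407 against 782 CPM, the other way from the neuroblast-like class.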
